A study of Mus musculus with 6 samples.

Results

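The report concerns 10 transcription factors of the mouse lens, read on every probe that the array carries for them. The rule names the members and uses no measured value, but they were chosen with earlier results of these data known. The members are Foxe3, Pax6, Six3, Meis1 and Tfap2a as factors of the lens epithelium, and Hsf4, Maf, Prox1, Sox1 and Pitx3 as factors of the lens fibre cells. They had 13 of the 39429 probes, matched through the transcript accession of each probe, and 11 of these 13 could be tested. The knock-in lenses came from 3-month-old mice in which a G to C point mutation made by CRISPR/Cas9 replaces tryptophan 151 of βB2-crystallin (Crybb2) with cysteine (W151C), and the wild type lenses came from mice of the same age. Each genotype had 3 single-colour arrays, knock-in replicates 1, 2 and 4 and wild type replicates 1, 2 and 3. Neither the number of copies of the knock-in allele, the strain nor the number of animals per array is given in the sources used here.

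Values below are log2 signals relative to the 75th percentile of the array, so that 0 is that percentile and a difference of 1 is 2-fold. A level is comparable between arrays for 1 probe and not between probes. The lenses carried their defining fibre transcripts: the 7 of 8 fibre markers with a probe were well above background on all 6 arrays, and so were 6 of 8 markers of the lens epithelium. Before scaling, that percentile was a signal of 167 to 201 on the knock-in arrays and 120 to 698 on the wild type arrays, where the highest value is that of wild type array 3. The 3 knock-in arrays shared a scan start and wild type arrays 1 and 2 shared another, both on day 1. Wild type array 3 was scanned on day 2. No scan start held both genotypes, so scan start and genotype cannot be told apart. A drop in a transcript of whole lenses can come from fewer cells of a type or from less RNA per cell, and bulk RNA cannot tell these apart.

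The lens has a single sheet of epithelial cells at its front, which divide, move to the equator and elongate into fibre cells that fill the organ. Pax6 and its partners set up the lens and keep the epithelium, and Foxe3 holds epithelial cells in a dividing, undifferentiated state. Prox1, Maf, Sox1 and Hsf4 act when cells elongate and switch on crystallin genes, and each of them is needed in the mouse for normal fibres. Prox1 and Pitx3 are also made in epithelial cells, so the division into epithelial and fibre factors is one of emphasis.

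Of the 10 genes, 8 had a promoter window in the RefSeq table of build GRCm38.p6 (11 windows of 300 bases, 250 before and 50 after a start site), and Hsf4 and Maf did not. The windows of Foxe3 and Sox1 are shown because both genes passed the test below, and that of Crybb1 because this β-crystallin gene, a target of several of the factors, fell in the same lenses. Capitals mark matches on either strand to a forkhead motif (TAAACA), the half-site of the Maf response element (TGCTGA), a SOX motif (AACAAT), a heat shock element (GAANNTTC), an AP-2 motif (GCCNNNGGC), a MEIS motif (TGACAG), a bicoid-type homeodomain motif (TAATCC) and a TATA motif (TATAA).
Foxe3, chr4:114926018-114926317, minus strand: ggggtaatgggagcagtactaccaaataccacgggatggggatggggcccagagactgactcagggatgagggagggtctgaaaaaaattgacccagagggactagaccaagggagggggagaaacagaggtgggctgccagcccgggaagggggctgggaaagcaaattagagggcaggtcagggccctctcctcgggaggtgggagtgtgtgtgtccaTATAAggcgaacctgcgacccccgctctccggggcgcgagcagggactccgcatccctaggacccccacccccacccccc
Sox1, chr8:12395269-12395568, plus strand: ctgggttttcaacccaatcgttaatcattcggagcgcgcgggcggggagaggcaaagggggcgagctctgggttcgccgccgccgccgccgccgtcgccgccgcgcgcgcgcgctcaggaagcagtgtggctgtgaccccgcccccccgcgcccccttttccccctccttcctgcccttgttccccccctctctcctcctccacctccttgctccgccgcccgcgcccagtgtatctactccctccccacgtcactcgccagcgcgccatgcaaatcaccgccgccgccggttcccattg
Crybb1, chr5:112255570-112255869, plus strand: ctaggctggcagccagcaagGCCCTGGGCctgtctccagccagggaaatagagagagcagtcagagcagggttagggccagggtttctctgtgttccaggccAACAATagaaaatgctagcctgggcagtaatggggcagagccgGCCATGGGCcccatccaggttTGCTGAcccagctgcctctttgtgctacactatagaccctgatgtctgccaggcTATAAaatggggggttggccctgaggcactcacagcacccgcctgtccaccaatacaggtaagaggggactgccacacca
The Crybb1 window held the Maf half-site TGCTGA, the SOX motif AACAAT, 2 AP-2 motifs and a TATA motif, with no overlap between them. The Foxe3 window held only a TATA motif, and the Sox1 window held none of the 8 motifs. The window of Crygb, another target called lower below, is not shown and held only the MEIS motif TGACAG. Over 32851 promoter windows, 19.5% held the Maf half-site, 10.7% the SOX motif, 16.6% the AP-2 motif and 24.9% the TATA motif. The remaining motifs were held by 13.4% (forkhead), 7.86% (heat shock), 19.2% (MEIS) and 7.06% (bicoid-type). Of the 11 windows of the factors, 2 held the AP-2 motif, 2 the MEIS motif, 2 the TATA motif and 1 the forkhead motif. A match of such short letters is a description of the window.

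The question was whether lens transcription factors are made at other levels in lenses with the altered crystallin. Hsf4 and Sox1 fell in the knock-in lenses, by 0.81 and 0.71 on the log2 scale. Foxe3 was called lower too (-1.11), but it entered the test only through the wild type arrays, where it is high. Prox1, Pitx3, Tfap2a and Six3 had lower means that did not pass the test, Pax6 had a higher mean that did not pass, and Maf and Meis1 had differences near 0. The count called was 3 of 10 (30%), all lower, beside a background in which 24.2% of 12782 genes were called in either direction, 12.4% higher and 11.8% lower. A negative difference was found in 8 of 10 factors and in 52.6% of all genes. All knock-in arrays lay below all wild type arrays for 7 of the 10 genes and above them for none. Among all genes 45.9% had such separated groups, 22.7% with the knock-in arrays above and 23.1% with them below. The median log2 difference was -0.53 over the 10 factors, -0.35 over the 5 epithelial factors and -0.59 over the 5 fibre factors, beside -0.04 over all genes. With only probes above background on all 6 arrays, Foxe3 was not among the 9 factors tested, and Hsf4, Sox1 and Pitx3 were called, beside 25.2% of all genes. Of the epithelial factors 1 of 5 was called, Foxe3, and of the fibre factors 2 of 5, and the difference between these sets was not tested. Tests were made with limma over 21072 probes with Benjamini-Hochberg adjustment, and no member was called with scan start as a random block, where 1 of 10 had an unadjusted p below 0.05. Since no scan start held both genotypes, a call made in that fit, here or below, cannot tell scan start from genotype.

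**Figure D1:**
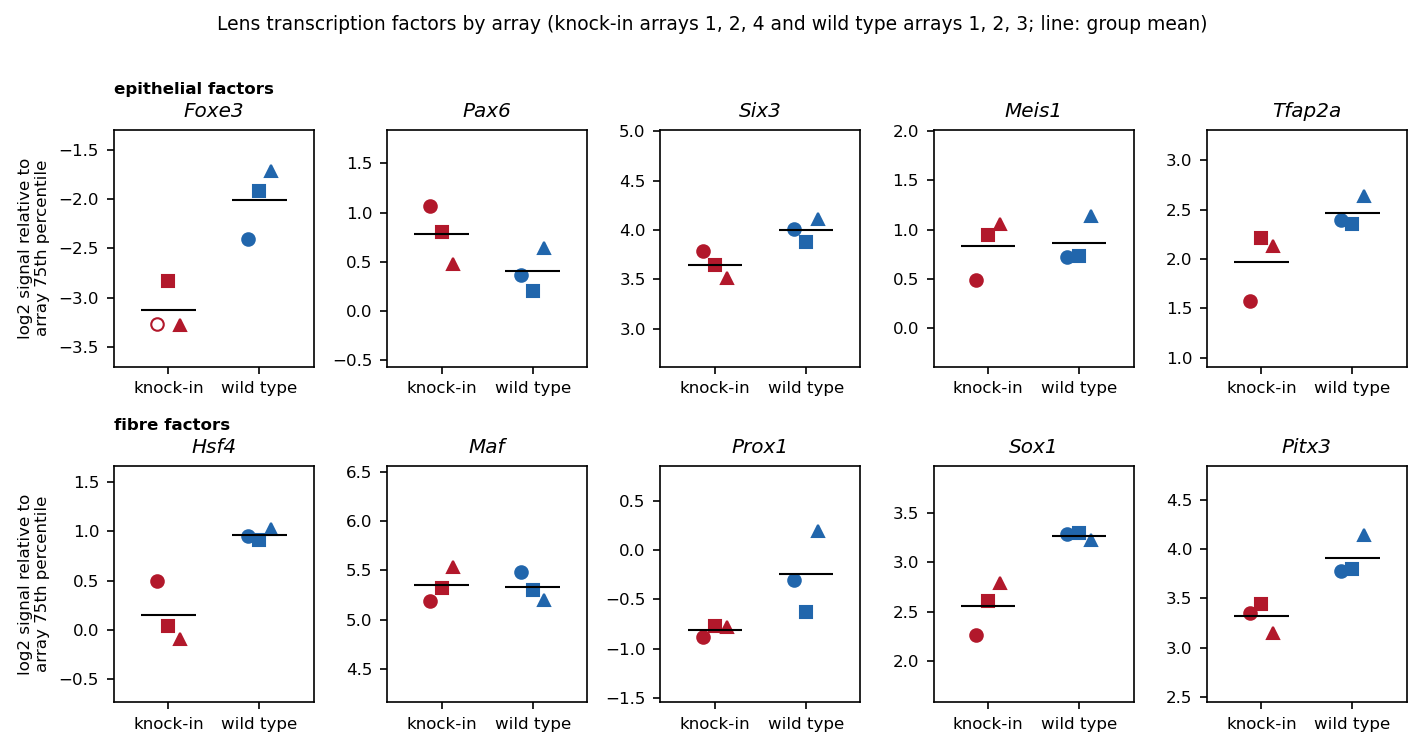
Log2 signal relative to the array's 75th percentile (vertical axis, each panel spanning the same range) of the 10 factors on the 3 knock-in arrays (left, red) and the 3 wild type arrays (right, blue). Circles, squares and triangles are arrays 1, 2 and 4 of the knock-in and 1, 2 and 3 of the wild type, lines are group means, and the open circle is the array where Foxe3 was not well above background. In 7 of 10 panels every knock-in point lies below every wild type point; Pax6, Meis1 and Maf overlap.

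Foxe3, the forkhead factor that maintains the lens epithelium and is mutated in dysgenetic lens mice, had log2 signals of -3.26, -2.83 and -3.28 for knock-in arrays 1, 2 and 4, against -2.40, -1.92 and -1.72 for wild type arrays 1, 2 and 3. The groups were separated by 0.43. Foxe3 averaged -3.12 ± 0.26 in knock-in and -2.01 ± 0.35 in wild type lenses (SD, n = 3 each), a fall to 0.463 times the wild type level (log2 difference -1.11, SE 0.24, limma adjusted p = 0.0172). It had a single probe, well above background on 2 knock-in and all 3 wild type arrays, and it was tested because of the wild type group, where it is high. Foxe3 is therefore a gene that the filter admitted in the direction in which it moved. Its call is therefore no support for a count of members. Without the filter on dim probes its adjusted p was 0.0697, and with scan start as a random block 0.186. The call was also lost without knock-in replicate 1 (adjusted p = 0.0587), knock-in replicate 4 (0.0583) or wild type replicate 2 (0.062). After normexp background correction with an offset of 50 the difference was -0.33 (adjusted p = 0.316). Before scaling, the Foxe3 spot had a processed signal of 17.4, 28.3 and 19.4 in the knock-in group, against 26.9, 31.8 and 212 in the wild type group, so on 5 arrays it lay below that offset.

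Six3, a homeobox factor that acts with Pax6 early in lens development, had log2 signals of 3.79, 3.64 and 3.51 for knock-in arrays 1, 2 and 4, against 4.01, 3.88 and 4.11 for wild type arrays 1, 2 and 3. The groups did not overlap, but the gap was 0.09, smaller than the SD of the knock-in (0.14) or the wild type group (0.12). The difference of -0.35 (95% interval -0.74 to 0.04, adjusted p = 0.162) did not pass. It was -0.14 with normexp and -0.0092 with normexp and quantile normalization.

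Tfap2a encodes AP-2α, a factor of the lens epithelium and the ocular surface, and had 2 probes designed on different transcripts. The brighter probe gave 1.58, 2.22 and 2.13 for knock-in arrays 1, 2 and 4, against 2.39, 2.35 and 2.64 for wild type arrays 1, 2 and 3. All knock-in values were lower, knock-in array 1 most of all, and the difference was -0.49 (95% interval -1.0 to 0.03, adjusted p = 0.147). The dimmer probe gave -2.39, -2.41 and -1.69 for knock-in arrays 1, 2 and 4, against -1.91, -1.95 and -1.87 for wild type arrays 1, 2 and 3. Here knock-in array 4 was the highest of all 6, and the difference of -0.25 (adjusted p = 0.453) did not pass either.

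Pax6, the paired-box and homeodomain factor on which lens formation depends, was the one factor with a positive difference beyond its SE. Its brighter probe gave 1.07, 0.81 and 0.47 for knock-in arrays 1, 2 and 4, against 0.36, 0.21 and 0.64 for wild type arrays 1, 2 and 3. Knock-in array 4 lay below wild type array 3, so the groups overlapped. The difference of 0.38 (95% interval -0.13 to 0.89, adjusted p = 0.24) did not pass, and it was positive in 22 of 22 alternative settings, from 0.24 to 0.65. It was called in 3 of these, with the replicate block (0.65, adjusted p = 0.0255), without knock-in 4 and wild type 3 together, and with array weights, which called 96.5% of all genes. A second Pax6 probe was not well above background on any array and was not tested. Meis1, a TALE homeodomain factor known to act upstream of Pax6 in the lens, averaged 0.83 ± 0.30 in knock-in and 0.86 ± 0.24 in wild type lenses (SD, n = 3 each). Its difference of -0.03 had a 95% interval from -0.55 to 0.49.

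Hsf4, the heat shock factor of the lens, which fibre cells need to lose their organelles and in which mutations cause cataract, had log2 signals of 0.50, 0.04 and -0.09 on knock-in arrays 1, 2 and 4. The wild type arrays gave 0.96, 0.91 and 1.02 for replicates 1, 2 and 3. The wild type values lay within a narrow band and every knock-in value lay below them, by at least 0.41. The mean of Hsf4 was 0.15 ± 0.31 in knock-in and 0.96 ± 0.05 in wild type lenses (SD, n = 3 each), which is 0.569 times the wild type level (log2 difference -0.81, SE 0.20, adjusted p = 0.027). It was well above background on all 6 arrays and the difference lay between -0.99 and -0.67 in all 22 alternative settings. The call was lost without knock-in replicate 2 (adjusted p = 0.115), knock-in replicate 4 (0.0758), wild type replicate 1 (0.0985) or wild type replicate 2 (0.081), without the filter on dim probes (0.111) and with scan start as a random block (0.28).

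Sox1, an HMG-box factor that mouse lenses need to switch on the γ-crystallin genes, had log2 signals of 2.26, 2.61 and 2.78 for knock-in arrays 1, 2 and 4, against 3.28, 3.29 and 3.22 for wild type arrays 1, 2 and 3. The groups were separated by 0.44, and the wild type arrays agreed more closely than the knock-in arrays. Sox1 averaged 2.55 ± 0.26 in knock-in and 3.27 ± 0.04 in wild type lenses (SD, n = 3 each), a fall to 0.609 times the wild type level (log2 difference -0.71, SE 0.19, adjusted p = 0.0331). A second, dim Sox1 probe passed background on 0 of 3 knock-in and 2 of 3 wild type arrays and was not tested, and no fold is given for it. The call of the first probe was lost with median centring (adjusted p = 0.067), normexp (0.322; 0.218 with quantile normalization too), no filter on dim probes (0.133), scan start as a random block (0.315) and without knock-in replicate 1 (0.0626), knock-in replicate 2 (0.11), wild type replicate 1 (0.123) or wild type replicate 2 (0.112). With normexp the difference was -0.39.

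Pitx3, the homeobox factor missing from the lens of aphakia mice, had log2 signals of 3.35, 3.45 and 3.15 for knock-in arrays 1, 2 and 4, against 3.77, 3.80 and 4.14 for wild type arrays 1, 2 and 3. The groups were separated by 0.33, and the difference of -0.59 (SE 0.18, 95% interval -1.02 to -0.16) just missed the threshold (adjusted p = 0.0561). It passed in 9 of 22 alternative settings, among them the fit with 1 probe per gene (adjusted p = 0.0485). Others were scan day as a block (0.044), where 42.7% of all genes were called, and array weights, where 96.5% were. Pitx3 did not pass with quantile normalization (0.104), normexp (0.119), median centring (0.147), no filter on dim probes (0.188) or scan start as a random block (0.319). Prox1, the homeobox factor required for fibre elongation, had -0.88, -0.77 and -0.78 for knock-in arrays 1, 2 and 4, against -0.30, -0.63 and 0.19 for wild type arrays 1, 2 and 3. The knock-in values were close together, and the wild type values were spread over most of 1 log2 unit, with array 3 the highest. The difference of -0.56 (95% interval -1.11 to -0.02) had an adjusted p of 0.121, and within the shared scan day it was -0.34 (adjusted p = 0.119).

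Maf, the bZIP factor c-Maf that binds crystallin promoters, had log2 signals of 5.19, 5.33 and 5.54 for knock-in arrays 1, 2 and 4, against 5.48, 5.30 and 5.2 for wild type arrays 1, 2 and 3. The groups overlapped. The difference was 0.02, with a 95% interval from -0.39 to 0.43, so a fall as large as those of Hsf4 or Sox1 lies outside the interval. Its sign turned in 7 of 22 alternative settings, and after quantile normalization the difference was 0.36 (adjusted p = 0.216).

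**Figure D2:**
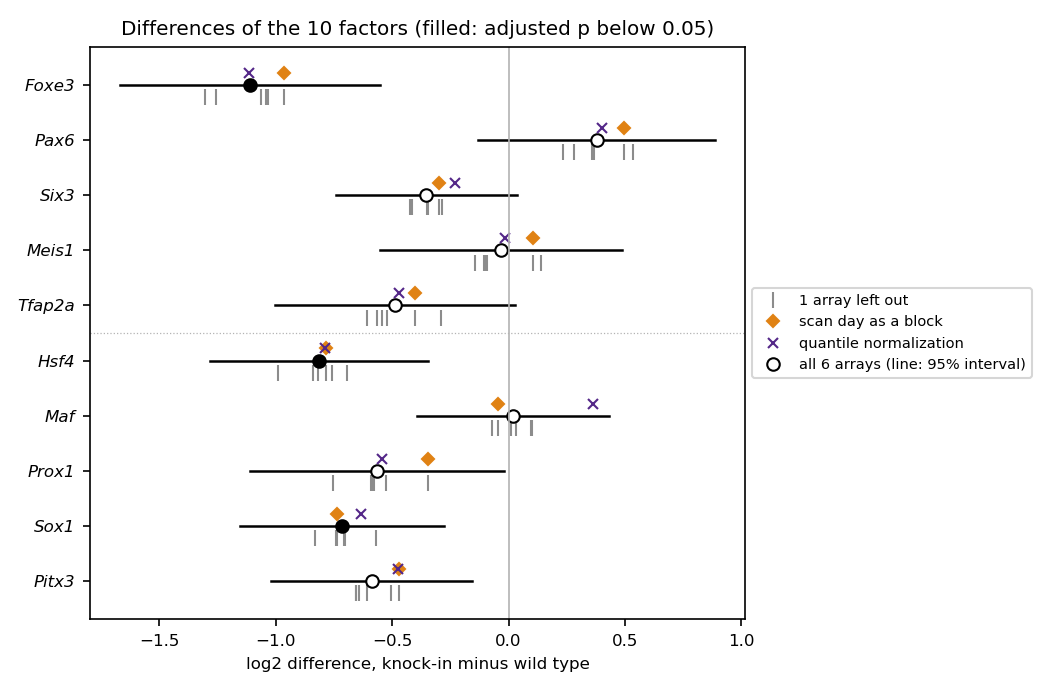
Log2 difference of each factor, knock-in minus wild type (horizontal axis), with epithelial factors above the dotted line and fibre factors below. Circles are the fit on all 6 arrays with its 95% interval (filled: adjusted p below 0.05), grey ticks the fits that leave out 1 array, diamonds the fit with scan day as a block and crosses quantile normalization. Foxe3, Hsf4 and Sox1 have filled circles; Meis1 and Maf lie near 0.

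Over the 6 arrays Pearson's r between the 7 factors with separated groups, of which their difference between genotypes is a part, ran from 0.47 (Tfap2a and Hsf4) to 0.96 (Six3 and Hsf4, and Foxe3 and Pitx3). Meis1 gave -0.21 with Hsf4 and 0.68 with Tfap2a, and Pax6 and Sox1 gave -0.86 (n = 6 arrays, the same libraries for both genes). The mean deviation of the 5 fibre factors from their means over all arrays was -0.29, -0.25 and -0.26 for knock-in arrays 1, 2 and 4, against 0.26, 0.16 and 0.38 for wild type arrays 1, 2 and 3. For the 5 epithelial factors it was -0.25, -0.03 and -0.20 on the knock-in arrays, against 0.03, 0.07 and 0.38 on the wild type arrays. Both profiles were highest on wild type array 3. Without that array the median difference over the 10 factors was -0.37, and Foxe3, Hsf4, Sox1 and Pitx3 were called, where 42.5% of all genes were. By Pearson's r over the 6 arrays the genes most like the epithelial profile were Echdc3 (0.998), Pih1d1, Wdr73, Tyw5 and Cage1 (0.994), and those most like the fibre profile were Azin1 (0.997), Mrrf, Arvcf, Gng12 and Pla2g5 (0.995). After quantile normalization none of these names was among the 5 nearest of either profile.

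Markers of other cell types differed between arrays. All 7 photoreceptor markers were well above background on knock-in array 4, as were 3 on knock-in array 1 and 5 on array 2, against 2 or 3 on each wild type array. Their summed level, in multiples of the 75th percentile, was 2.36, 3.08 and 69.4 for knock-in arrays 1, 2 and 4, against 0.427 to 0.633 on the wild type arrays. For Prph2, a disc protein of photoreceptors, knock-in array 4 read 5.51 and the other knock-in arrays -0.14 and 0.88, against -2.59 to -2.28 in the wild type group. Pax6, Six3, Prox1 and Tfap2a are among the members that are also transcribed in retinal neurons. On knock-in array 4, Pax6 and Six3 had the lowest values of the 3 knock-in arrays, and the dimmer Tfap2a probe had its highest. Prox1 (-0.78) and the brighter Tfap2a probe (2.13) lay between the values of the other knock-in arrays. Of the remaining members, Meis1 (1.06), Maf (5.54) and Sox1 (2.78) had their highest knock-in value on array 4. Foxe3 (-3.28), Hsf4 (-0.09) and Pitx3 (3.15) had their lowest knock-in value there. The part of photoreceptor RNA in the members' differences was not tested. Without knock-in replicate 4 the only member called was Sox1 (adjusted p = 0.0387), and without both knock-in replicate 4 and wild type replicate 3 those called were Foxe3, Pax6, Hsf4 and Sox1. In that setting, chosen after the arrays were seen, Pax6 was higher by 0.65 (adjusted p = 0.0248), and 46% of all genes were called. Lens fibre markers had a summed level of 894, 862 and 828 for knock-in arrays 1, 2 and 4, against 2099, 2447 and 744 for wild type arrays 1, 2 and 3, so wild type array 3 lay below the knock-in arrays in the sum while Hsf4, Sox1, Pitx3 and Prox1 lay above every knock-in array on it. For the lens epithelium the sum was 58.1, 61.1 and 56.0 on the knock-in arrays, against 35.1, 33.6 and 36.9 on the wild type arrays. Pdpn, which rose by 1.55 on the log2 scale (adjusted p = 0.00115), made up 66.9 to 76.2% of the sum on the knock-in arrays and 38.2 to 41.2% on the wild type arrays. Without it, a choice made after the values were seen, the sum was 13.8, 18 and 18.5 on the knock-in arrays, against 20.7, 19.8 and 22.8 on the wild type arrays. Among the 8 epithelium markers, which include Foxe3 and Pax6, 5 had a negative difference, with a median of -0.41. The part of either in the members' differences was not tested. Among leukocyte markers 3 of 6 tested were called. Itgam fell by 1.65 (adjusted p = 0.0425), C1qc rose by 4.39 (adjusted p = 0.0108) with 3 knock-in and 1 wild type array well above background, and Tyrobp was called higher (adjusted p = 0.00343) with 3 and 0 such arrays. Both smooth muscle markers tested were called, Acta2 lower (-2.24, adjusted p = 0.00449) and Tagln higher (2.70, adjusted p = 0.0114), and so was the corneal Kera, at -1.19 (adjusted p = 0.0422). The part of these in the members' differences was not tested. Of the other markers, 3 of 5 endothelial and 3 of 5 smooth muscle markers were well above background on no array, as were 2 of 6 corneal markers.

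**Figure D3:**
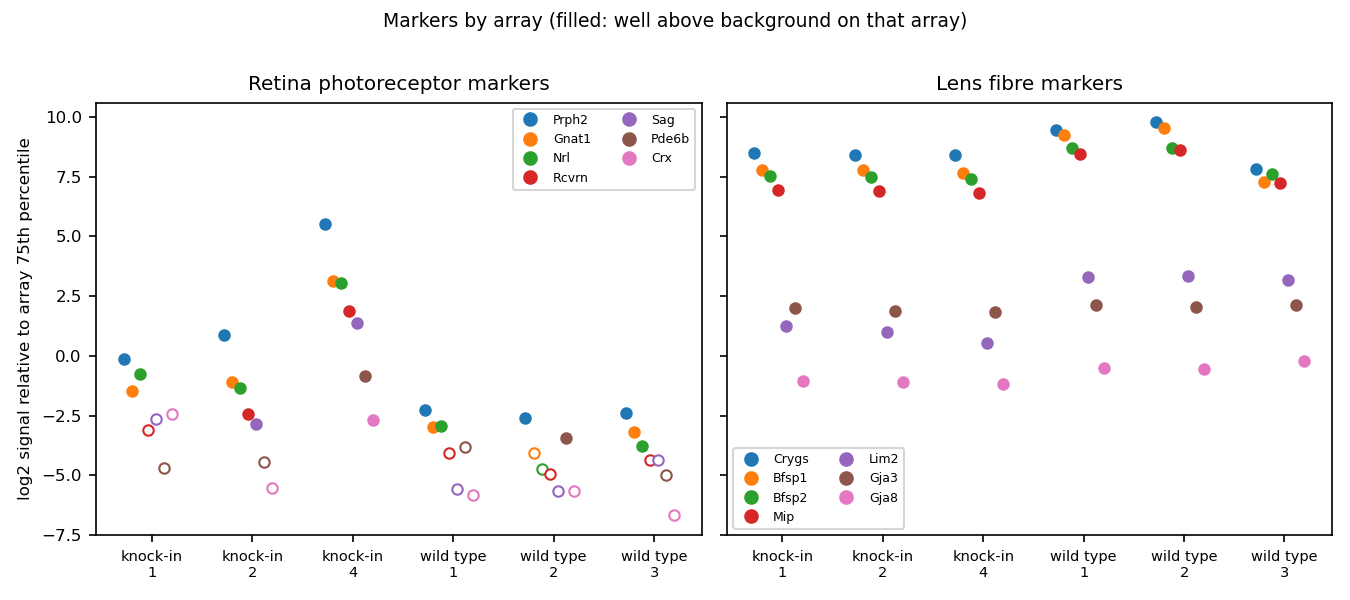
Log2 signal relative to the array's 75th percentile (vertical axis) of 7 photoreceptor markers (left panel) and 7 lens fibre markers (right panel) on the 3 knock-in and 3 wild type arrays. Each colour is a gene and filled points are well above background on that array. Every photoreceptor marker except Crx is highest on knock-in array 4, and Crygs, Bfsp1, Bfsp2 and Mip are higher on wild type arrays 1 and 2 than on the other 4 arrays.

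Of 56 other regulators of gene expression known in the lens, 46 were tested, with 3 higher, 3 lower and a median log2 difference of -0.08. The share called was 13%, beside 24.2% of all genes, and 1 gene was called with scan start as a random block. Tdrd7, a protein of lens RNA granules whose loss causes cataract, had 5.33, 5.70 and 5.76 for knock-in arrays 1, 2 and 4, against 7.04, 7.04 and 6.75 for wild type arrays 1, 2 and 3. All knock-in arrays were lower, and Tdrd7 fell by 1.35 (SE 0.19, adjusted p = 0.00425). Celf1, an RNA-binding protein that fibre cells also need, fell by 0.82 (SE 0.20, adjusted p = 0.025), with all 3 tested probes lower. Etv4, an ETS factor downstream of FGF signalling, had 1.34, 1.16 and 1.1 for knock-in arrays 1, 2 and 4, against -0.39, -0.51 and -1.44 for wild type arrays 1, 2 and 3, and rose by 1.98 (SE 0.29, adjusted p = 0.00485). Atf4, a bZIP factor of stress responses, was higher by 0.88 (SE 0.21, adjusted p = 0.0262). The 2 further calls, E2f3 (0.63) and Nf2 (-1.40), were named after their values were seen. With scan start as a random block Etv4 had an adjusted p of 0.0363, while Tdrd7 (0.085), Celf1 (0.265) and Atf4 (0.245) did not pass. Single arrays decided further calls: Celf1 had an adjusted p of 0.0752 to 0.0907 when knock-in 2, wild type 1 or wild type 2 was left out, and Atf4 one of 0.0788 to 0.109 when knock-in 2 or 4 or wild type 1 or 2 was. After quantile normalization Celf1 differed by -0.49 (adjusted p = 0.18).

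Relatives of the 10 factors were also measured, and 16 of them stand on the list of lens regulators too. Of 49 genes 25 were tested, with 3 higher and 3 lower (24%, beside 24.2% of all genes) and a median log2 difference of -0.22. Of the 25, 7 were tested through 1 genotype only, among them the called Pax4, Sox3 and Nrl. With only probes above background on all 6 arrays, 6 of 18 were called, beside 25.2% of all genes. Pax4, Sox3 and Nrl were not among those 18. With scan start as a random block 1 gene was called. Pax4, a paired-box relative of Pax6, had -4.70, -5.61 and -5.87 for knock-in arrays 1, 2 and 4, against 1.14, 0.89 and -0.58 for wild type arrays 1, 2 and 3. It stood well above background on 0 of 3 knock-in arrays and was tested only through the wild type arrays, where it is high. Its level was at least 14.2-fold lower on the knock-in arrays (limma adjusted p = 0.000655). For this bound the knock-in mean was taken no lower than the dimmest signal well above background on each array, and it holds on the scale of the processed signal. After normexp, whose offset of 50 narrows differences of dim signals, the log2 difference was -2.29, and -2.50 with quantile normalization too. Sox3, of the same SOX subgroup as Sox1, was called lower (-1.28, SE 0.34, adjusted p = 0.0342), but with 2 knock-in and 3 wild type arrays well above background it was tested only through the genotype in which it is high. Its adjusted p was 0.102 without the filter on dim probes, and with normexp the difference was -0.46 (adjusted p = 0.131). Maff, a small Maf protein, rose by 1.32 (SE 0.24, adjusted p = 0.00958), and Tgif1, a TALE relative of Meis1, rose by 1.07 (SE 0.17, adjusted p = 0.00645). With scan start as a random block Pax4 was called (adjusted p = 0.00979), and Sox3 (0.321), Maff (0.13) and Tgif1 (0.109) were not. Leaving out single arrays ended the calls of Sox3 (adjusted p = 0.06, 0.0871 and 0.0757 when knock-in 2, wild type 1 and wild type 2 were left out in turn) and of Maff (0.0506 without knock-in replicate 2). Nrl, a Maf relative that is also one of the photoreceptor markers, was called higher by 4.13 (adjusted p = 0.0367). It was tested only through the knock-in arrays, where it read -0.76, -1.36 and 3.04 on arrays 1, 2 and 4. The wild type arrays gave -4.75 to -2.93, so knock-in array 4 was by far the highest, and arrays 1 and 2 also lay above every wild type array. Without knock-in replicate 4 the 3 photoreceptor markers tested, Nrl among them, were all called higher, with a median of 2.76. Meis3 differed by -1.25 (adjusted p = 0.0452). Nrl and Meis3 were named after their values were seen.

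Genes known from the mouse to be regulated by at least 1 of the 10 factors had negative differences for the most part. Of 26 genes 25 were tested, 5 were called and all 5 were lower (20%), beside 24.2% called and 11.8% called lower of all genes. With scan start as a random block 1 target was called. A negative difference was found in 24 of 25, beside 52.6% of all genes, with a median of -0.87. All knock-in arrays lay below all wild type arrays for 8 of the 25 targets, beside 23.1% of all genes. Of the 15 crystallins among them, all 15 had a negative difference and 3 were called. Wild type array 3 lay below every knock-in array for Cryaa, Cryab, Cryba1, Cryba2, Crybb2, Crybb3, Crygs and Crygd. The negative differences of these genes rest on wild type arrays 1 and 2. On wild type array 3 Crygc and Crygf lay within the knock-in range, and the other crystallins above it. The crystallin genes are close in sequence, so single members are uncertain. Cdkn1c, a cell cycle inhibitor induced in cells that become fibres and a target of Prox1, had 2.70, 2.93 and 2.87 for knock-in arrays 1, 2 and 4, against 4.50, 4.54 and 4.59 for wild type arrays 1, 2 and 3. The groups lay far apart, and Cdkn1c fell by 1.71 (SE 0.16, adjusted p = 0.00081). With scan start as a random block its adjusted p was 0.0198, in a fit that cannot tell scan start from genotype. Crybb1, whose promoter window is shown above, had 6.13, 6.0 and 5.81 for knock-in arrays 1, 2 and 4, against 7.64, 7.70 and 7.14 for wild type arrays 1, 2 and 3. It fell by 1.51 (SE 0.21, adjusted p = 0.00388; 0.0614 with scan start as a random block).

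Crygb, a γ-crystallin gene of the group that mouse lenses without Sox1 do not switch on, had 6.54, 6.45 and 6.46 for knock-in arrays 1, 2 and 4, against 9.21, 9.42 and 7.69 for wild type arrays 1, 2 and 3. Wild type array 3 lay between the other wild type arrays and the knock-in arrays, and Crygb fell by 2.29 (SE 0.43, adjusted p = 0.0115; 0.0918 with scan start as a random block). Cryba4 fell by 1.38 (adjusted p = 0.0434) but lost its call without knock-in replicate 1, 2 or 4 or wild type replicate 1 or 2, at adjusted p from 0.0913 to 0.13, and with scan start as a random block (0.271). The number of targets called was 20 with scan day as a block, where wild type array 3 stands alone on its day, and 3 when any array other than wild type 3 was left out. The fifth target called was Mip, the main membrane channel of fibres (-1.21, adjusted p = 0.0477), named after its value was seen. Whether the level of any factor bears on its targets was not tested.

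**Figure D4:**
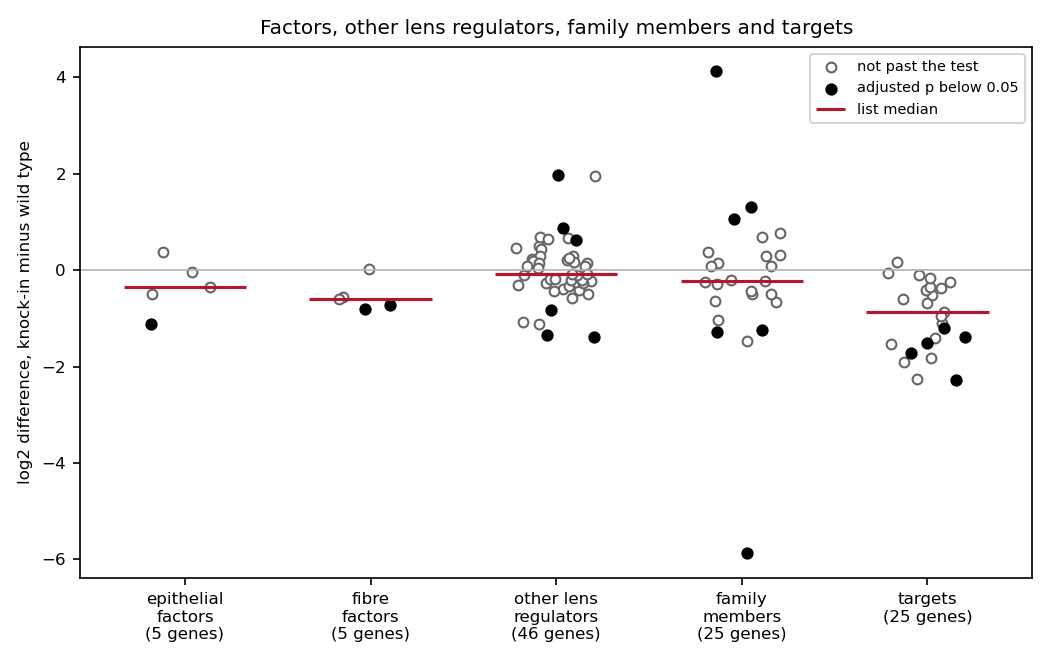
Log2 difference, knock-in minus wild type (vertical axis), of the 5 epithelial factors, the 5 fibre factors, 46 other lens regulators, 25 family members and 25 targets. Each point is a gene, filled where the adjusted p is below 0.05, horizontal position within a column has no meaning, and red lines are medians (-0.35, -0.59, -0.08, -0.22 and -0.87). The targets lie almost wholly below 0, while regulators and family members lie on both sides; the highest filled family point is Nrl.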

How the data were processed

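Lens RNA was read on Agilent arrays in 1 colour (Cy3), per the labels' protocols. Per the file headers, Feature Extraction 11.0.1.1 made the deposited intensity values (the submitters' processing notes name version 9.1): a processed signal from which each array's background was subtracted, and medians of spot and local background. The other deposited columns used are flags. The probes were designed on build mm9, per the file headers.

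The log2 of the processed signal, minus the 75th percentile of each array over 43020 non-control spots, was averaged over a probe's spots without outlier flags. Probes well above background (at least 50% of spots) on all arrays of at least 1 genotype were kept, 21072 of 39429, and 4 with a missing array were left out. RefSeq accessions without versions (table of GRCm38.p6) named 27234 probes, and the probe with the highest mean represents each of 12782 genes. The difference of knock-in minus wild type was fitted for all kept probes by limma's lmFit and eBayes (limma 3.58.1, R 4.3.3), which left 4 residual degrees of freedom. Calls were made at 0.05 after Benjamini-Hochberg adjustment. The procedure was tested on simulated data with independent noise on each array. No scan start effect was simulated, so that test cannot speak for these calls where scan start and genotype coincide. With 3 arrays a group, the smallest p of an exact permutation test is 0.1.

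The labels call the arrays biological replicates; nothing says how many animals each holds, so the p-values cover only spread among arrays, which may be technical. No 2 arrays held equal values at any kept probe. The members and lists were chosen with earlier results of these data known. All members are named, and of every other list the 4 genes with the smallest p, plus the 5 genes most like each mean profile; E2f3, Nf2, Nrl, Meis3, Mip and the markers were named after their values were seen. The alternatives covered scaling, background, filter, flags, weights, probe choice, scan start and scan day as blocks, replicate number, and each array left out. Normexp was run on median signals. 1 marker of the photoreceptor list is not reported here.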

Additional observations from a re-analysis of the deposited data

How the results depend on the processing

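Of 22 alternative settings, 21 planned and 1 chosen after seeing the data (without knock-in 4 and wild type 3), 13 kept the count of called members within 1.5 times of 3. Counts are given in the order members, epithelial factors, fibre factors, all genes, other lens regulators, family members, targets. The main counts were 3, 1, 2, 3097, 6, 6 and 5. Without the filter on dim probes they were 0, 0, 0, 1379, 2, 3 and 3 (4 members had an unadjusted p below 0.05). With scan start as a random block they were 0, 0, 0, 493, 1, 1 and 1, with normexp 1, 0, 1, 1254, 3, 2 and 8, and with array weights, which called 96.5% of all genes, 10, 5, 5, 12329, 45, 25 and 24. With scan day as a block 5456 genes, 12 regulators, 12 family members and 20 targets were called. The replicate block, in which only numbers 1 and 2 occur in both genotypes and the other arrays do not enter the difference, gave 2 epithelial factors, 5504 genes, 12 regulators, 11 family members and 20 targets. Nothing in the labels says that numbers pair the arrays, and same-numbered arrays deviated from their group means with r = 0.145 and -0.177. Without knock-in 4 and wild type 3 these were 2, 6019, 13, 13 and 20. The targets called were 9 with quantile normalization, 12 with median centring (1 fibre factor), 11 with normexp and quantile normalization and 3 with the percentile over probes above background on all arrays. With probes above background on all arrays no epithelial factor was called, since Foxe3 was not among them. Leaving out 1 array gave 0 to 4 members, 0 to 1 epithelial and 0 to 3 fibre factors, 1296 to 5557 genes, 2 to 12 regulators, 3 to 13 family members and 3 to 20 targets. The 4 members were called only without wild type replicate 3. Leaving out any other array gave 0 or 1: Hsf4 without knock-in 1, Foxe3 without knock-in 2 or wild type 1, Sox1 without knock-in 4, and none without wild type 2.

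Of the members' signs, those of Maf and Meis1 turned. Maf was -0.018 with median centring, -0.16 with array weights, -0.044 with scan day as a block and without wild type replicate 3, -0.14 with the replicate block and without knock-in 4 and wild type 3, and -0.071 without knock-in replicate 4. Meis1 was 0.25 with normexp, 0.30 with normexp and quantile normalization, 0.23 with array weights, 0.10 with scan day as a block and without wild type replicate 3, and from -0.15 to 0.14 when single arrays were left out. The cause of these changes was not tested. The median of all genes moved to 0.21 without the filter on dim probes, through the added genes. The share of calls higher in knock-in was 51.2%, and 41.4% with median centring. Dim probes limit Foxe3, the second probes of Pax6 and Sox1, and Pax4.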
